A study of Mus musculus with 10 samples.

Results

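The thermogenic and beige adipocyte genes Ucp1, Cidea, Dio2, Ppargc1a, Prdm16, Elovl3, Ebf2, Cox7a1, Cox8b and Ppara were followed through 10 RNA sequencing libraries of mouse inguinal (subcutaneous) white adipose tissue. The members were chosen by gene name, and all 10 were found, each once, among the 31285 genes of the deposited table. The series calls the mutant mice Ad-GHRKO, for a knockout of the growth hormone receptor (Ghr) restricted to fat, and their genotype label reads GHR Knockdown; the mice they were set against are labelled Flox. Both genotypes were 20 months old and fed regular chow ad libitum, with 5 libraries each. The promoter behind the deletion and the sex of the mice were not given in the sources used here, nor was it stated whether each library is a separate animal, so p-values reflect only the spread among these libraries, which may be technical.

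Beige adipocytes are thermogenic cells that arise within white fat, and inguinal fat is the mouse depot best known for them. Cold releases noradrenaline, which acts through beta-adrenergic receptors and cyclic AMP to free fatty acids and switch on Ucp1, whose product lets protons leak across the inner mitochondrial membrane so that fuel is burned as heat. Prdm16, Ebf2, Ppargc1a and Ppara regulate this programme, Dio2 makes active thyroid hormone in the cell, and Cidea, Elovl3, Cox7a1 and Cox8b are markers of it. Cox7a1 and Cox8b are also the muscle and heart forms of their subunits, and Ppargc1a and Ppara act in muscle and liver too.

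Values are FPKM (fragments per kilobase of gene, scaled by the number of assigned fragments in a library), so levels of different genes are compared per length. Ghr, the targeted gene, had 12.99 to 20.1 FPKM in Ad-GHRKO and 72.9 to 129.8 FPKM in Flox libraries. Depth recovered from the values was 14.6 to 19.3 M reads per library (M, mega). Transcripts of 28 skeletal muscle genes made up 18.6% of all reads in Ad-GHRKO 1, 7.37% in Flox 3 and 10.6% in Flox 5, but 0.0125% to 0.242% in the remaining Ad-GHRKO and 0.00683% to 0.0163% in the remaining Flox libraries. These 3 muscle-rich libraries stand apart, and results are given with and without them. The 12 adipocyte genes were above 0 in every library and summed to 4162 to 11483 FPKM in Ad-GHRKO and 7999.8 to 12835 FPKM in Flox, lowest in Ad-GHRKO 1. The 9 macrophage genes summed to 849 to 2327 FPKM in Ad-GHRKO and 577 to 1776 FPKM in Flox, the 6 endothelial genes to 94.9 to 217 FPKM in Ad-GHRKO and 85.4 to 185 FPKM in Flox, the 7 smooth muscle and pericyte genes to 132 to 371 FPKM in Ad-GHRKO and 101 to 168 FPKM in Flox, the 6 B cell genes to 2.67 to 15.8 FPKM in Ad-GHRKO and 6.81 to 45.1 FPKM in Flox, and the 8 mammary epithelial genes to 0.332 to 5.11 FPKM in Ad-GHRKO and 0.584 to 3.59 FPKM in Flox. All 9 macrophage genes had log2 changes above 0, with a median of 0.46, and 0 of them passed the test used below; their part in the results was not tested. Of the smooth muscle and pericyte genes, Cspg4, a pericyte and progenitor proteoglycan, was lower in Ad-GHRKO, at 3.09 ± 0.452 FPKM in Ad-GHRKO and 6.87 ± 1.30 FPKM in Flox (SD, n = 5 each; log2 change -0.94, limma adjusted p = 0.00811, and 0.0297 without the muscle-rich libraries). Of the adipocyte genes 0 passed with all libraries, and without the muscle-rich ones Adipoq, which encodes adiponectin, was lower (log2 change -1.02, limma adjusted p = 0.0276) and Lep, which encodes leptin, was higher (1.69, 0.0312).

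Cidea was lower in every Ad-GHRKO library, and Cox8b was lower in the 4 Ad-GHRKO libraries that were not muscle-rich. Ucp1 was at or under 3 reads in 4 of 5 Flox libraries and 1 of 5 Ad-GHRKO libraries, but had its highest level in the remaining Flox library. Dio2 and Elovl3 were low in most libraries of both genotypes. Prdm16, Ebf2 and Ppara averaged less in Ad-GHRKO by amounts that did not pass the test. By mean level over the 10 libraries the order was Cox8b (73.4 FPKM), Cidea (22.9 FPKM), Cox7a1 (16.9 FPKM), Ebf2 (3.16 FPKM), Ucp1 (1.76 FPKM), Prdm16 (1.59 FPKM), Ppara (1.31 FPKM), Ppargc1a (1.02 FPKM), Elovl3 (0.473 FPKM) and Dio2 (0.121 FPKM). Each gene overlapped its neighbour in this order when their ranges over the libraries were compared.

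**Figure D1:**
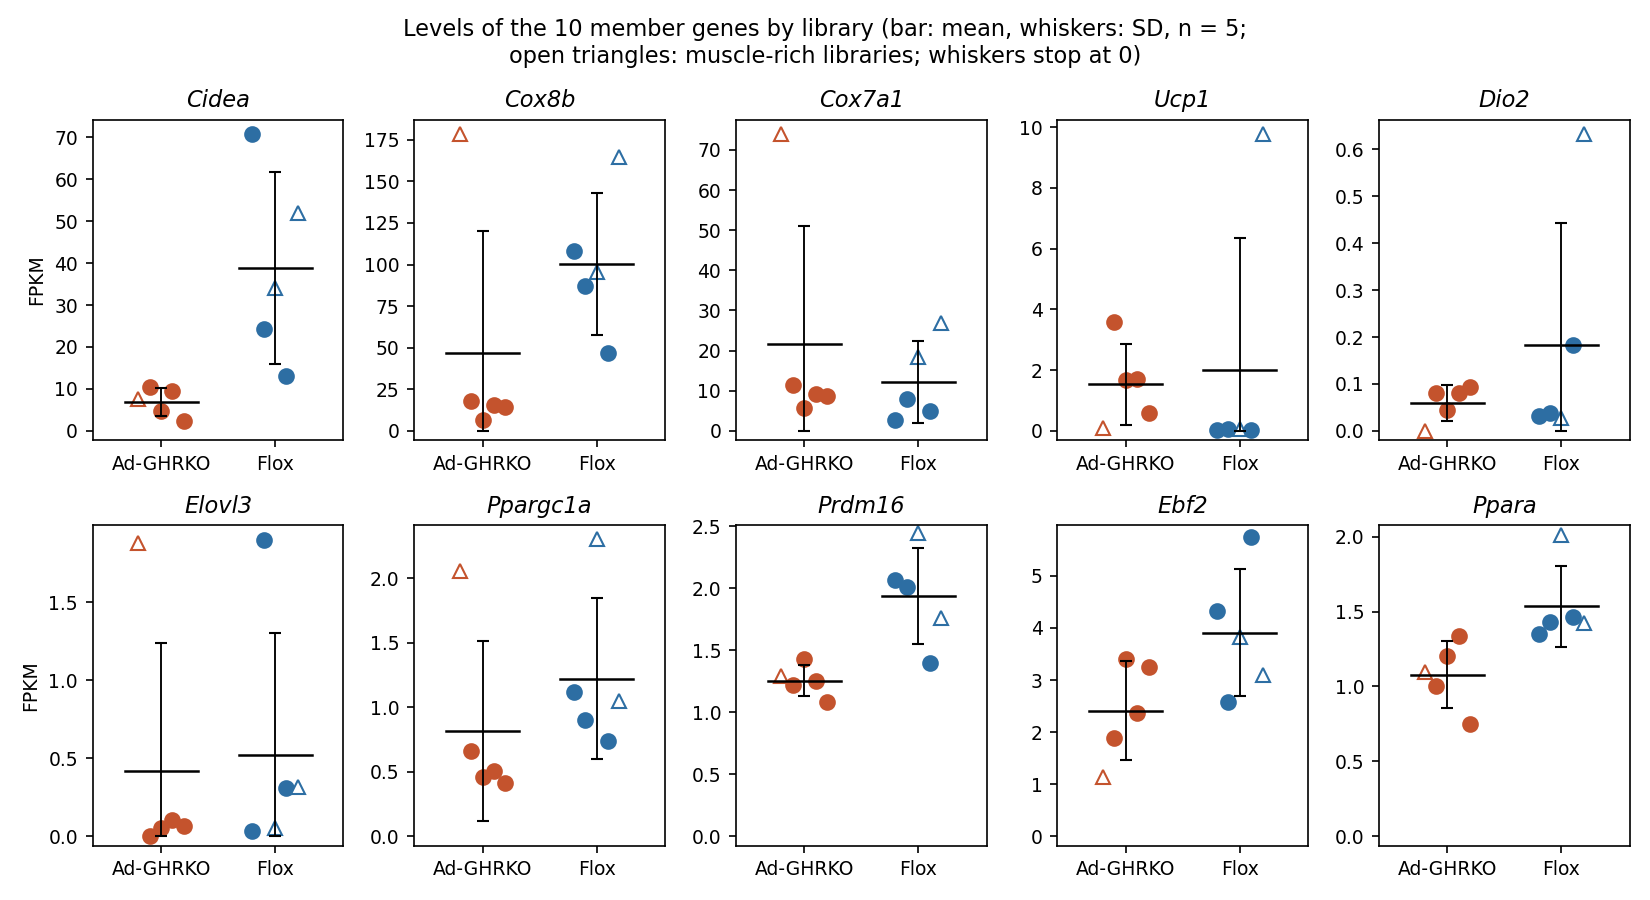
FPKM of each member gene (vertical axis, a scale of its own per gene) in the 5 Ad-GHRKO and the 5 Flox libraries, with mean and SD and with the 3 muscle-rich libraries marked. Every Ad-GHRKO value of Cidea, up to 10.6 FPKM, lies below every Flox value, from 13.1 FPKM, while 1 library is far above the rest of its genotype for Ucp1 (Flox 5), Cox7a1 and Cox8b (Ad-GHRKO 1).

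Genes reaching 1 FPKM in 5 or more of the 10 libraries were tested with limma, a linear model fitted to all genes together, on log2(FPKM + 1), two-sided, with Benjamini-Hochberg adjustment over the 12785 genes tested and a threshold of 0.05. Of the members, 6 were tested (Cidea, Cox7a1, Cox8b, Prdm16, Ebf2 and Ppara) and 4 fell under the filter (Ucp1, Dio2, Elovl3 and Ppargc1a). Of the 6, 1 was lower in Ad-GHRKO, 0 were higher and 5 did not pass, with a median log2 change of -0.46. Over all tested genes 1.42% were lower and 0.774% higher (181 and 99 genes), with a median log2 change of 0.04; after rescaling each library to the same total (TPM), 93 were lower and 141 higher. Without the muscle-rich libraries 1 of the 6 was again lower, but it was Cox8b in place of Cidea, and 0 were higher, beside 3.12% lower and 2.96% higher over all tested genes. Every Ad-GHRKO library lay below every Flox library for 2 of the 6 (Cidea and Ppara), against 3.35% of all tested genes, and for 3 of the 6 (Cidea, Cox8b and Ppara) without the muscle-rich libraries, against 11.2%.

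**Figure D2:**
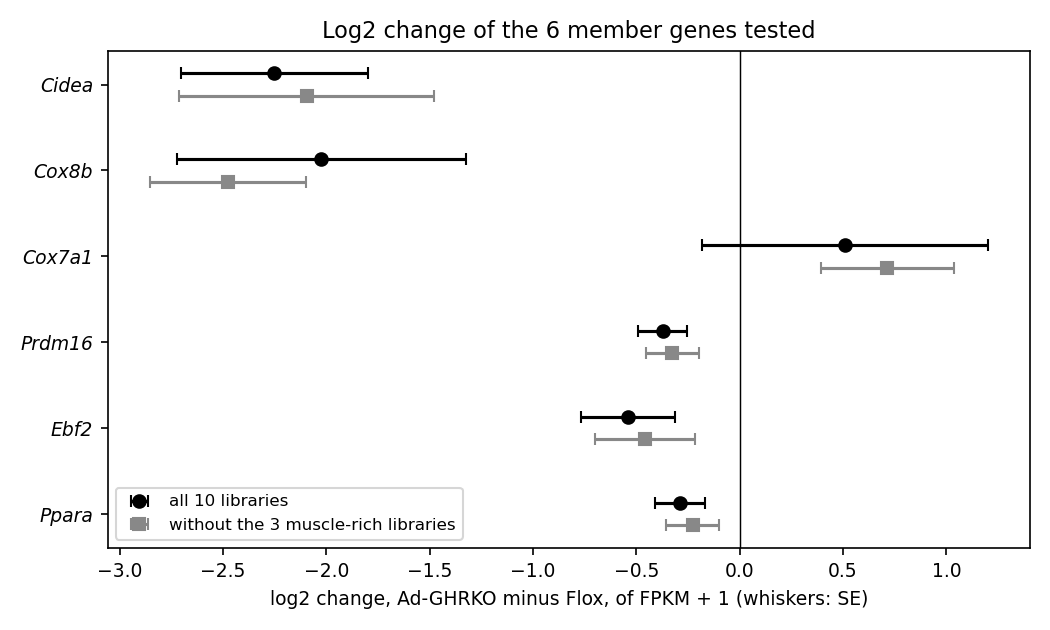
Log2 change of FPKM + 1 (Ad-GHRKO minus Flox, with SE) of the member genes from all 10 libraries and without the 3 muscle-rich libraries. Cidea (-2.25 and -2.09) and Cox8b (-2.02 and -2.48) lie farthest below 0 in both fits.

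Cidea encodes a lipid droplet protein that helps droplets exchange lipid and grow, and is abundant in brown and beige fat (ENSMUSG00000024526, chromosome 18, 67343604 to 67367785, plus strand, GRCm38). It had 7.55, 10.6, 4.75, 9.40 and 2.27 FPKM in Ad-GHRKO libraries 1 to 5, and 70.8, 24.3, 34.1, 13.1 and 51.9 FPKM in Flox libraries 1 to 5. The groups did not overlap, and the spread was wider in Flox. The mean was 6.91 ± 3.40 FPKM in Ad-GHRKO and 38.8 ± 22.8 FPKM in Flox (SD, n = 5 each), 5.62-fold lower in Ad-GHRKO, with a log2 change of -2.25 (SE 0.45, limma adjusted p = 0.0297). In bulk tissue, fewer cells of a type and less RNA per cell cannot be told apart. Without the muscle-rich libraries the mean was 6.75 ± 3.90 FPKM in Ad-GHRKO (SD, n = 4) and 36.1 ± 30.6 FPKM in Flox (SD, n = 3); the groups were still apart, but the log2 change of -2.09 (SE 0.62) no longer passed (limma adjusted p = 0.0844). The call also ended on leaving out any 1 of 6 libraries, with a limma adjusted p of 0.0565 (Flox 1), 0.0551 (Flox 2), 0.0682 (Flox 3), 0.0697 (Flox 5), 0.0816 (Ad-GHRKO 3) and 0.0690 (Ad-GHRKO 5). With no filter on low values it ended too (0.0929). Cidec, the relative that coats the large droplets of white adipocytes and the far more abundant of the pair per length, was at 1971 ± 744 FPKM in Ad-GHRKO and 1758 ± 472 FPKM in Flox (SD, n = 5 each), with a log2 change of 0.10 (SE 0.33, limma adjusted p = 0.922).

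Cox8b encodes the muscle and heart form of a subunit of cytochrome c oxidase, the last complex of the respiratory chain, and is also made in brown and beige adipocytes (ENSMUSG00000025488, chromosome 7, 140898945 to 140900446, minus strand). It had 178, 17.95, 6.62, 15.4 and 14.4 FPKM in Ad-GHRKO libraries 1 to 5, and 108, 86.8, 95.4, 46.6 and 164 FPKM in Flox libraries 1 to 5. The muscle-rich Ad-GHRKO 1 held the highest value of all, and the other 4 Ad-GHRKO libraries lay below every Flox library. The mean was 46.5 ± 73.7 FPKM in Ad-GHRKO and 100.3 ± 42.6 FPKM in Flox (SD, n = 5 each), and the log2 change of -2.02 (SE 0.70) did not pass (limma adjusted p = 0.176). Without the muscle-rich libraries the mean was 13.6 ± 4.89 FPKM in Ad-GHRKO (SD, n = 4) and 80.6 ± 31.4 FPKM in Flox (SD, n = 3), 5.92-fold lower in Ad-GHRKO, and Cox8b passed with a log2 change of -2.48 (SE 0.38, limma adjusted p = 0.0186). Leaving out Ad-GHRKO 1 alone gave -2.76 (limma adjusted p = 0.00306), in a fit where 407 of 12785 genes were lower and 778 higher. On leaving out any other single library Cox8b did not pass (limma adjusted p of 0.189 to 0.359). In the 4 Ad-GHRKO libraries that were not muscle-rich, Cox8b was at 6.62 to 17.95 FPKM where the 28 muscle genes summed to 67.8 to 1036 FPKM, and in the 3 such Flox libraries it was at 46.6 to 108 FPKM where they summed to 34.2 to 90.1 FPKM.

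The promoters of Cox8b, of Cox7a1 and of Ucp1, the defining gene of the programme, are shown because these genes differed from each other in how they moved across the libraries. Each runs 5′ to 3′ from 250 bases before to 50 bases after the RefSeq gene start (GRCm38.p6). Capitals mark TATAAA, the letters of the TATA box core, or AGGTCA, the hexamer that nuclear receptors such as the PPARs bind.
Cox8b, chr7:140900397-140900696, minus strand: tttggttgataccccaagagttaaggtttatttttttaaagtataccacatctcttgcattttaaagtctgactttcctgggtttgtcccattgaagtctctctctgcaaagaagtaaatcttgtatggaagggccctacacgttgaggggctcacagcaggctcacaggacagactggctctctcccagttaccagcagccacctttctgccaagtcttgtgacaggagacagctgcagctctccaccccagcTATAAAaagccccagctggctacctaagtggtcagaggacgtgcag
Cox7a1, chr7:30183921-30184220, plus strand: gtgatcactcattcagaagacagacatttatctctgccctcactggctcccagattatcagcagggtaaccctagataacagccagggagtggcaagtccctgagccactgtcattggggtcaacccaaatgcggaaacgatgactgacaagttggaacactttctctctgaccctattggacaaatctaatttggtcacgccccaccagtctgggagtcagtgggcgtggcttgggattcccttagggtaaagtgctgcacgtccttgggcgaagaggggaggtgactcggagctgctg
Ucp1, chr8:83290098-83290397, plus strand: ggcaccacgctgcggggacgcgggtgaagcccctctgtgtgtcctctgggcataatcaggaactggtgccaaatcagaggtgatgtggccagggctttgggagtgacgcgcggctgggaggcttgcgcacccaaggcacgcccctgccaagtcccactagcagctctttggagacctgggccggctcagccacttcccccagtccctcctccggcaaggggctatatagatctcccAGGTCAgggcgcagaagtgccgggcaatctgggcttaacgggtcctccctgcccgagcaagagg

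Both strands were searched for AGGTCA, for its direct repeat spaced by 1 base (DR1, the PPAR element), for TCAAGGTCA (bound by estrogen-related receptors and ending in AGGTCA), for TGACGTCA (the cyclic AMP response element) and for TATAAA. Of 32851 promoters of 300 bases, 16.3% held AGGTCA, 0.0396% the direct repeat, 0.423% TCAAGGTCA, 1.79% TGACGTCA and 13.6% TATAAA. RefSeq promoters were matched for 7 of the 10 members, and not for Cidea, Elovl3 and Ebf2. TATAAA was in the windows of Cox8b, where it lies just after the RefSeq gene start, and of Dio2, where it begins 30 bases before it; TGACGTCA was in that of Dio2 and AGGTCA in that of Ucp1, beginning 14 bases before the gene start. The windows of Cox7a1, Ppargc1a, Prdm16 and Ppara held none of these letters. Only exact letters within the 300 bases were searched, so elements farther away or with other letters were not covered for any gene.

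Cox7a1, the muscle and heart form of another subunit of the same complex (ENSMUSG00000074218, chromosome 7, 30184144 to 30186078, plus strand), had 73.8, 11.5, 5.64, 9.12 and 8.57 FPKM in Ad-GHRKO libraries 1 to 5, and 2.59, 7.85, 18.4, 5.03 and 26.8 FPKM in Flox libraries 1 to 5. The 3 highest values were those of the 3 muscle-rich libraries. The log2 change was 0.51 (SE 0.69, limma adjusted p = 0.775), and it was -0.088 without Ad-GHRKO 1 (limma adjusted p = 0.932). In the 7 other libraries the mean was 8.71 ± 2.40 FPKM in Ad-GHRKO (SD, n = 4) and 5.16 ± 2.63 FPKM in Flox (SD, n = 3), a log2 change of 0.72 (SE 0.32, limma adjusted p = 0.202). The muscle list summed to 69024 FPKM in Ad-GHRKO 1, 25926 FPKM in Flox 3 and 40224 FPKM in Flox 5, and in the other libraries 1 to 4 of its 28 genes were at 0. How much of the Cox7a1 and Cox8b reads came from muscle was not tested.

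**Figure D3:**
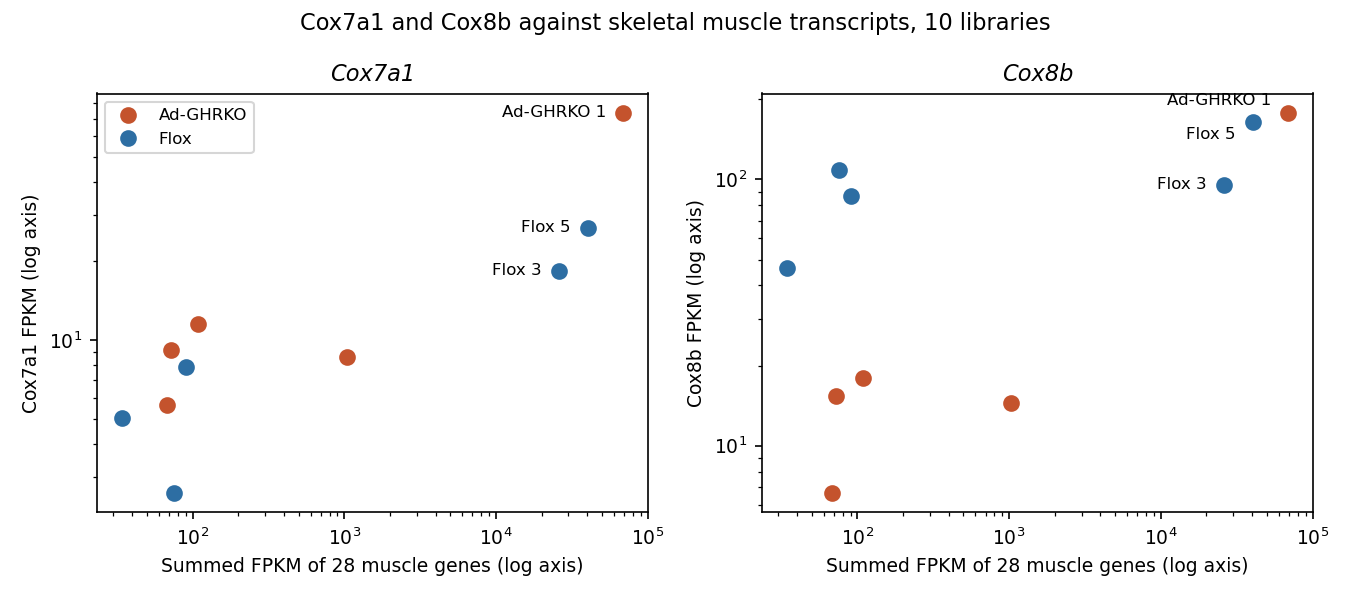
FPKM of Cox7a1 and of Cox8b against the summed FPKM of 28 skeletal muscle genes, on log axes, with 1 point per library coloured by genotype. Cox7a1 is highest in the 3 muscle-rich libraries, while Cox8b lies between 6.62 and 17.95 FPKM in the other Ad-GHRKO libraries and between 46.6 and 108 FPKM in the other Flox libraries.

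The widely expressed forms of these subunits were more abundant per length. Cox8a was at 498 ± 167 FPKM in Ad-GHRKO and 851 ± 152 FPKM in Flox (SD, n = 5 each; log2 change -0.82, limma adjusted p = 0.136). Cox7a2 was at 90.3 ± 10.6 FPKM in Ad-GHRKO and 116 ± 28.4 FPKM in Flox (limma adjusted p = 0.414), and Cox7a2l, which helps join respiratory complexes, at 74.3 ± 10.5 FPKM in Ad-GHRKO and 82.3 ± 20.2 FPKM in Flox (limma adjusted p = 0.801). Without the muscle-rich libraries the ratio of Cox8b to Cox8a was 0.0131 to 0.0397 in Ad-GHRKO and 0.0574 to 0.118 in Flox libraries. In the same libraries the ratio of Cox7a1 to Cox7a2 was 0.0743 to 0.113 in Ad-GHRKO and 0.0202 to 0.0506 in Flox. The first ratio was thus lower and the second higher in Ad-GHRKO, each without overlap. In these libraries 11.2% of all tested genes, taken singly, had every Ad-GHRKO library below every Flox library. The share above was not counted, nor was either share for ratios of gene pairs, so neither ratio has a matching rate. In the muscle-rich libraries the ratio of Cox8b to Cox8a was 0.599 in Ad-GHRKO 1, the highest of all 10, 0.143 in Flox 3 and 0.209 in Flox 5, so that over all libraries the groups overlapped. The ratio of Cox7a1 to Cox7a2 there was 0.835 in Ad-GHRKO 1, 0.236 in Flox 3 and 0.249 in Flox 5. Over all 10 libraries the exact two-sided permutation p of the log2 ratio was 0.230 for Cox8b to Cox8a and 0.397 for Cox7a1 to Cox7a2.

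Ucp1, whose promoter is shown above (ENSMUSG00000031710, chromosome 8, 83290352 to 83298452, plus strand), had 0.1002, 3.57, 1.68, 1.71 and 0.586 FPKM in Ad-GHRKO libraries 1 to 5, and 0.0385, 0.0685, 0.0656, 0.0343 and 9.76 FPKM in Flox libraries 1 to 5. As reads these were 3, 112, 52, 54 and 14 in Ad-GHRKO and 1, 2, 2, 1 and 304 in Flox. Every Ad-GHRKO library stood above Flox 1 to 4, while the highest value of all belonged to Flox 5. Since 3 reads are worth 0.0952 to 0.125 FPKM, Ad-GHRKO 1 and Flox 1 to 4 were at or under the level of 3 reads. With all libraries the mean was 1.53 ± 1.34 FPKM in Ad-GHRKO and 1.99 ± 4.34 FPKM in Flox (SD, n = 5 each), lower in Ad-GHRKO, while the difference on the log2(FPKM + 1) scale was 0.43, higher in Ad-GHRKO, with overlapping groups (exact two-sided permutation p = 0.548 on the log2 scale). Without the muscle-rich libraries, which include Flox 5 and Ad-GHRKO 1, the mean was 1.89 ± 1.24 FPKM in Ad-GHRKO (SD, n = 4) and 0.0471 ± 0.0187 FPKM in Flox (SD, n = 3), and the groups did not overlap. In these libraries 11.2% of all tested genes had every Ad-GHRKO library below every Flox library, and the share above was not counted. The log2 difference was then 1.36, and the exact two-sided permutation p = 0.0571 is the smallest that 4 against 3 libraries allow, so this design cannot pass 0.05. Leaving out Flox 5 alone gave 1.10 (exact two-sided permutation p = 0.0159, unadjusted and the smallest those libraries allow). Leaving out any other single library gave an exact two-sided permutation p of 0.429 to 0.857. In limma with no filter, over all genes above 0, the adjusted p of Ucp1 was 0.846.

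The levels of Ucp1 and Cidea had different orders. In Ad-GHRKO 2, which had the highest Ucp1 level of its genotype, Cidea was at 10.6 FPKM, and in Flox 1, with 1 Ucp1 read, Cidea was at 70.8 FPKM, its highest level of all. Flox 5 was the highest Flox library in Ucp1, Dio2, Cox7a1 and Cox8b. Ucp2, a relative found in immune and many other cells, was at 47.1 ± 15.0 FPKM in Ad-GHRKO and 26.8 ± 11.6 FPKM in Flox (SD, n = 5 each). Its log2 change was 0.82 (limma adjusted p = 0.245, and 0.0439 without Ad-GHRKO 1). On leaving out any other single library Ucp2 did not pass. Exons of Ucp2 overlap those of Dnajb13 on the other strand. Ucp3, the form known from muscle, was at 18.6 ± 20.9 FPKM in Ad-GHRKO and 23.0 ± 8.98 FPKM in Flox (limma adjusted p = 0.596).

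Dio2, the deiodinase that makes active thyroid hormone (ENSMUSG00000007682, chromosome 12, 90724552 to 90738438, minus strand), was the lowest member. It had 0, 9, 5, 9 and 8 reads in Ad-GHRKO libraries 1 to 5 and 3, 4, 3, 19 and 70 reads in Flox libraries 1 to 5, which is 0 to 0.0941 FPKM in Ad-GHRKO and 0.0277 to 0.632 FPKM in Flox. The count of 0 in Ad-GHRKO 1 allows up to 0.0282 FPKM (3 reads, counting error only). Flox 5 stood above all other libraries, and the groups overlapped. The log2 difference was -0.13 (exact two-sided permutation p = 0.429; limma with no filter, adjusted p = 0.761), and -0.01 without the muscle-rich libraries (exact two-sided permutation p = 0.914). No difference in Dio2 was detectable at this depth. Its exons overlap those of Gm26512 on the other strand, and whether reads were counted by strand was not given in the sources used here.

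Elovl3, a fatty acid elongase that cold induces in brown fat and that liver and skin glands also make (ENSMUSG00000038754, chromosome 19, 46131897 to 46135694, plus strand), had 1.88, 0, 0.0536, 0.105 and 0.0693 FPKM in Ad-GHRKO libraries 1 to 5, and 0.0319, 1.90, 0.0543, 0.312 and 0.319 FPKM in Flox libraries 1 to 5. Ad-GHRKO 1 and Flox 2 stood far above the rest, with 68 and 67 reads, and the other 8 libraries had 0 to 12 reads. The log2 difference was -0.12 (exact two-sided permutation p = 0.595; limma with no filter, adjusted p = 0.921), -0.58 without the muscle-rich libraries (exact two-sided permutation p = 0.229) and 0.14 without Flox 2 (exact two-sided permutation p = 0.968). Alb, which encodes albumin, was at 220.0 FPKM in Ad-GHRKO 1 and 118 FPKM in Flox 2. A list of 17 liver secretory genes, written after the genes nearest to Elovl3 had been seen, summed to 808 FPKM in Ad-GHRKO 1 and 413 FPKM in Flox 2, against 15.8 to 112 FPKM in the other Ad-GHRKO and 18.7 to 175 FPKM in the other Flox libraries. The part of such RNA in the Elovl3 values was not tested. Exons of Elovl3 overlap those of Pitx3 on the other strand.

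**Figure D4:**
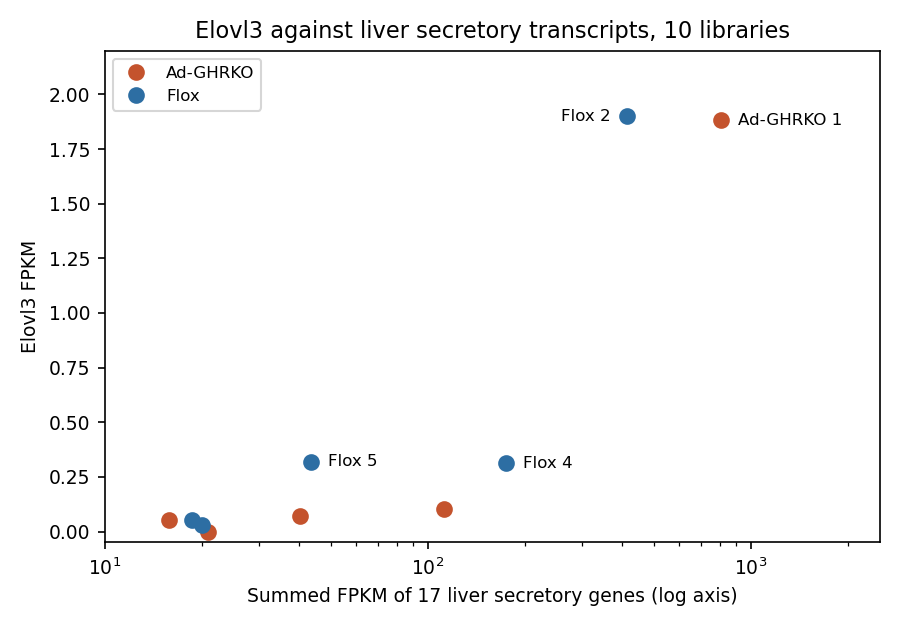
FPKM of Elovl3 against the summed FPKM of 17 liver secretory genes, with 1 point per library coloured by genotype. Ad-GHRKO 1 and Flox 2, at 1.88 and 1.90 FPKM of Elovl3, also have the highest liver sums, 808 and 413 FPKM.

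Of 15 tested relatives of the members 0 were higher and 14 did not pass (median log2 change -0.21). The remaining 1 was lower in Ad-GHRKO, against 1.42% of all tested genes. It was Elovl6, which elongates the products of fatty acid synthesis, with 1.597, 2.05, 1.66, 2.53 and 2.12 FPKM in Ad-GHRKO libraries 1 to 5, and 2.29, 9.64, 13.02, 7.63 and 19.0 FPKM in Flox libraries 1 to 5. Flox 1 lay within the range of Ad-GHRKO. The log2 change was -1.70 (SE 0.38, limma adjusted p = 0.0469). It did not pass in the 7 libraries that were not muscle-rich (0.107) or on leaving out single libraries, with a limma adjusted p of 0.113 (Flox 2), 0.103 (Flox 3), 0.0894 (Flox 4), 0.0816 (Flox 5), 0.0837 (Ad-GHRKO 2), 0.120 (Ad-GHRKO 3), 0.0834 (Ad-GHRKO 4) and 0.108 (Ad-GHRKO 5). With no filter on low values the limma adjusted p was 0.132, and with TPM rescaling 0.0618. With voom on the recovered reads it was 0.0542. Exons of Elovl6 overlap those of Gm35986. Elovl1 was at 26.8 ± 7.08 FPKM in Ad-GHRKO and 25.2 ± 3.47 FPKM in Flox (limma adjusted p = 0.924), and Elovl5 at 22.7 ± 6.16 FPKM in Ad-GHRKO and 24.6 ± 3.92 FPKM in Flox (limma adjusted p = 0.776).

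Ppargc1a, the coactivator that drives mitochondrial genes (ENSMUSG00000029167, chromosome 5, 51454250 to 51567726, minus strand), reached 1 FPKM in 4 libraries and so fell under the filter. It had 2.06, 0.664, 0.458, 0.504 and 0.415 FPKM in Ad-GHRKO libraries 1 to 5, and 1.12, 0.901, 2.30, 0.740 and 1.05 FPKM in Flox libraries 1 to 5. The highest library of each genotype was a muscle-rich one, and the 4 other Ad-GHRKO libraries lay below every Flox library. The share of all genes with that pattern was not counted. The log2 difference was -0.32 (exact two-sided permutation p = 0.278; limma with no filter, adjusted p = 0.761). It was -0.52 without Ad-GHRKO 1 (exact two-sided permutation p = 0.0159, unadjusted and the smallest those libraries allow). Leaving out any other single library gave an exact two-sided permutation p of 0.238 to 0.556. Without all 3 muscle-rich libraries the log2 difference was -0.34 (exact two-sided permutation p = 0.0571, the smallest possible). In these libraries 11.2% of all tested genes had every Ad-GHRKO library below every Flox library. The means of Ppargc1a there were 0.510 ± 0.109 FPKM in Ad-GHRKO (SD, n = 4) and 0.920 ± 0.190 FPKM in Flox (SD, n = 3). Its relative Ppargc1b, which serves similar targets, had 1.04, 1.07, 0.730, 0.663 and 0.566 FPKM in Ad-GHRKO libraries 1 to 5, and 1.63, 1.70, 3.31, 1.42 and 1.70 FPKM in Flox libraries 1 to 5. Those groups did not overlap, and 3.35% of all tested genes lay so with Ad-GHRKO lower. The log2 change of Ppargc1b, -0.68 (SE 0.17), did not pass (limma adjusted p = 0.0629). Ppargc1b passed without the muscle-rich libraries (0.0475) and without Ad-GHRKO 1 (0.0332), but not on leaving out any other single library. Pprc1, the remaining relative, was at 7.26 ± 1.599 FPKM in Ad-GHRKO and 5.59 ± 1.13 FPKM in Flox (limma adjusted p = 0.385).

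Prdm16, a zinc finger regulator that holds cells in the brown and beige fate (ENSMUSG00000039410, chromosome 4, 154316125 to 154636873, minus strand), had 1.29, 1.22, 1.43, 1.25 and 1.08 FPKM in Ad-GHRKO libraries 1 to 5, and 2.07, 2.01, 2.44, 1.40 and 1.76 FPKM in Flox libraries 1 to 5. Flox 4 lay within the range of Ad-GHRKO and the other Flox libraries above it. The log2 change was -0.37 (SE 0.12, limma adjusted p = 0.140), and -0.32 without the muscle-rich libraries (limma adjusted p = 0.156). Ebf2, a factor that opens brown fat enhancers and marks adipose progenitors (ENSMUSG00000022053, chromosome 14, 67233292 to 67430918, plus strand), had 1.14, 1.88, 3.40, 2.37 and 3.26 FPKM in Ad-GHRKO libraries 1 to 5, and 4.32, 2.58, 3.82, 5.74 and 3.09 FPKM in Flox libraries 1 to 5. The groups overlapped, and the log2 change was -0.54 (SE 0.23, limma adjusted p = 0.263), and -0.46 without the muscle-rich libraries (limma adjusted p = 0.266). Its relatives Ebf1 and Ebf3 were at 13.5 ± 4.61 FPKM in Ad-GHRKO and 11.5 ± 2.93 FPKM in Flox and at 3.23 ± 0.819 FPKM in Ad-GHRKO and 4.26 ± 0.487 FPKM in Flox (limma adjusted p = 0.820 for Ebf1 and 0.318 for Ebf3). Exons of Prdm16 overlap those of B230104I21Rik, and exons of Ebf2 those of Gm10860, on the other strand.

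Ppara, the nuclear receptor that senses fatty acids and switches on their oxidation (ENSMUSG00000022383, chromosome 15, 85734983 to 85802819, plus strand), had 1.10, 1.01, 1.201, 1.34 and 0.749 FPKM in Ad-GHRKO libraries 1 to 5, and 1.35, 1.43, 2.01, 1.46 and 1.42 FPKM in Flox libraries 1 to 5. The groups were apart, with 1.34 FPKM as the highest Ad-GHRKO and 1.35 FPKM as the lowest Flox value. The log2 change of -0.29 (SE 0.12) did not pass (limma adjusted p = 0.259), nor did -0.23 without the muscle-rich libraries (0.299). Pparg, the master regulator of adipocytes, was at 53.5 ± 16.7 FPKM in Ad-GHRKO and 80.6 ± 17.7 FPKM in Flox (limma adjusted p = 0.269), and Ppard at 6.02 ± 1.30 FPKM in Ad-GHRKO and 7.02 ± 0.533 FPKM in Flox (limma adjusted p = 0.530). Of 16 tested PPAR alpha target genes 0 passed (median log2 change 0.20). The smallest p were those of Ehhadh, a peroxisomal oxidation enzyme, with a log2 change of -0.76 (limma adjusted p = 0.0914), and Cyp4b1, with 1.06 (0.0945). Cyp4b1 passed as higher without the muscle-rich libraries (log2 change 1.21, limma adjusted p = 0.0165).

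Of 22 tested genes listed under beta-adrenergic input and cyclic AMP, 0 were higher and 20 did not pass (median log2 change 0.11). The remaining 2 were lower in Ad-GHRKO, against 1.42% of all tested genes. Of these 2, Adrb3 is a receptor of that input, while Nrg4 encodes a secreted factor and is not a step of the pathway. Adrb3, the beta-3 adrenergic receptor of adipocytes, had 37.2, 40.9, 27.0, 40.9 and 21.1 FPKM in Ad-GHRKO libraries 1 to 5, and 254, 218, 209, 133 and 108 FPKM in Flox libraries 1 to 5. The groups were far apart, and the log2 change was -2.40 (SE 0.27, limma adjusted p = 0.00169), and -2.60 without the muscle-rich libraries (0.00929). Nrg4, which encodes a neuregulin secreted by brown fat, had 1.77, 4.44, 2.04, 3.66 and 1.80 FPKM in Ad-GHRKO libraries 1 to 5, and 9.20, 10.4, 8.44, 6.84 and 9.91 FPKM in Flox libraries 1 to 5. These groups were apart too, with a log2 change of -1.46 (SE 0.21, limma adjusted p = 0.00493), and -1.34 without the muscle-rich libraries (0.0326). Both passed under all 24 alternatives tried. Exons of Adrb3 overlap those of Gm45470, and exons of Nrg4 those of Fbxo22, on the other strand.

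Of 24 tested activators of the programme 0 passed (median log2 change -0.04), and the smallest p were those of Hlx, with -0.33 (limma adjusted p = 0.209), and Nfia, with -0.40 (0.238). Of 18 repressors 0 passed (median 0.17), and the smallest p were those of Tle3, with 0.55 (limma adjusted p = 0.303), and Nr1h3, with -0.37 (0.334). An unadjusted limma p under 0.05 was reached by 1005 higher and 1086 lower of all genes tested.

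Among 13 tested beige cell markers 0 were higher and 12 did not pass (median log2 change -0.19). The remaining 1 was lower in Ad-GHRKO, against 1.42% of all tested genes. It was Slc36a2, an amino acid transporter at the surface of brown adipocytes, at 35.9 ± 11.2 FPKM in Ad-GHRKO and 70.2 ± 9.55 FPKM in Flox (SD, n = 5 each), with a log2 change of -0.99 (SE 0.21, limma adjusted p = 0.0344). It did not pass in the 7 libraries that were not muscle-rich (0.0526) or on leaving out single libraries, with a limma adjusted p of 0.0508 (Flox 1), 0.0934 (Flox 2), 0.0788 (Flox 3), 0.0862 (Flox 4), 0.0606 (Flox 5), 0.104 (Ad-GHRKO 3) and 0.0882 (Ad-GHRKO 5). It also ended with no filter (0.0883) and with TPM rescaling (0.0716). Among 10 tested brown adipocyte markers 0 were lower and 9 did not pass (median 0.08). The remaining 1 was higher, against 0.774% of all tested genes. It was Kng2, a kininogen, with 4.197, 5.43, 3.91, 4.80 and 5.58 FPKM in Ad-GHRKO libraries 1 to 5, and 0.323, 0.902, 0.294, 0.574 and 0.327 FPKM in Flox libraries 1 to 5. The groups were far apart, with a log2 change of 1.97 (SE 0.14, limma adjusted p = 6.54e-05), and 1.90 without the muscle-rich libraries (0.00509). Kng1 is a close copy, so which of the pair the reads came from is uncertain.

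Of 22 tested genes of mitochondrial fuel use 0 were higher and 21 did not pass (median log2 change -0.20). The remaining 1 was lower in Ad-GHRKO, against 1.42% of all tested genes. It was Cpt2, which takes fatty acids off carnitine inside mitochondria, with 32.5, 49.7, 34.8, 42.5 and 28.7 FPKM in Ad-GHRKO libraries 1 to 5, and 65.1, 76.1, 57.7, 70.0 and 75.1 FPKM in Flox libraries 1 to 5. The groups were apart, with a log2 change of -0.87 (SE 0.16, limma adjusted p = 0.0212), and -0.86 without the muscle-rich libraries (0.0399). The call ended on leaving out single libraries, with a limma adjusted p of 0.0601 (Flox 2), 0.0595 (Flox 4), 0.0522 (Flox 5), 0.0696 (Ad-GHRKO 3) and 0.0527 (Ad-GHRKO 5). The call of Cpt2 ended as well with no filter (0.0511) and with TPM rescaling (0.0635). Cpt1a, which loads fatty acids onto carnitine, passed as higher without the muscle-rich libraries (log2 change 0.79, limma adjusted p = 0.0436). Of 12 tested genes of heat production without Ucp1, through creatine, calcium and triglyceride cycles, 0 passed (median 0.13). The smallest p were those of Dgat1 and Pnpla2, which make and break triglyceride, with log2 changes of -0.84 (limma adjusted p = 0.0934) and -0.64 (0.250).

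The tested genes outside these lists with the pattern nearest to each member were found by the root mean square distance between standardised log2 values over the 10 libraries, where 0 is an identical pattern. Nearest to Cidea were Ppp1r37 (0.280), Mcrip2 (0.333) and Clpb (0.340), and to Cox8b Chchd3 (0.211), Ndufa12 (0.263) and Ecsit (0.311). Nearest to Cox7a1 were E2f6 (0.209), Rab10 (0.223) and Scrn3 (0.234). The 28 muscle genes were among those left out, and genes reaching 1 FPKM only in the muscle-rich libraries fell under the filter. Nearest to Ucp1 were Lrrc28 (0.456), Prmt5 (0.620) and Tmem150a (0.636), to Dio2 Apex1 (0.364), Hlf (0.386) and Angpt4 (0.421) and to Elovl3 Serpina1e (0.305), Fgg (0.330) and Mup3 (0.339), the last being genes of secreted liver proteins. Among the regulators, the nearest were Egln3 (0.312), Phf7 (0.338) and Vps72 (0.377) for Ppargc1a, Gm45470 (0.295), Gm38244 (0.353) and Zyg11a (0.359) for Prdm16, Atp6ap1 (0.202), Dennd2a (0.311) and Cdc25b (0.333) for Ebf2 and Ddt (0.387), Sec61a2 (0.421) and Gm10073 (0.438) for Ppara. Exons of Gm45470 overlap those of Adrb3, a listed gene, on the other strand, and the part of Adrb3 reads in its values was not tested. For comparison, the median distance over all tested genes was 1.15 for Ebf2, the lowest of the members, and 1.64 for Cox7a1, the highest. These distances describe the 10 libraries, which share their muscle and liver content with the genes compared.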

How the data were processed

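RNA was measured in inguinal white adipose tissue of 20-month-old Ad-GHRKO and Flox mice, 5 libraries each, from polyadenylated RNA with second-strand marking per the labels' protocols. The authors deposited 1 table of FPKM values, 1 column per library, per the file headers, and the aligner, the counter and its use of strand were not given in the sources used here. Per the submitters' processing notes the build is GRCm39, but 99.6% of the identifiers shared with GENCODE M21 (31124 of 31253) have its GRCm38 coordinates, so positions are given as GRCm38. FPKM times GENCODE M21 exon length gave whole reads (tolerance 0.01) for 99.43% to 99.49% of values per library, with 14.6 to 19.3 M reads (M, mega) per library; counting limits cover counting error only. Since FPKM divides by the assigned fragments of a library, abundant muscle transcripts lower its other values.

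Tests used limma 3.58.1 in R 4.3.3 with a mean-variance trend, as described with the results; log2(FPKM + 1) understates changes of low genes. Members under the filter were compared by exact permutation tests (SciPy 1.17.1, 252 assignments for 5 against 5). The members and all lists were chosen with earlier results of these data known. All 10 members are named, with all tested relatives (Mecom and 7 others were under the filter and Cox8c was not used here), and from each of 8 pathway lists up to 4 genes past the threshold or, with none, the 2 with the smallest p; from marker lists up to 3 of the most abundant were allowed. Alb, Cpt1a, Cspg4, Lep and the liver list were chosen after their values were seen. Libraries are numbered as in the sample titles. Promoters are from RefSeq (GRCm38.p6). Python 3.11.15, pandas 2.3.3 and matplotlib 3.10.9 were used. The fit was also run on simulated counts with the same setting of spread for all genes and no difference in muscle content among libraries. That run therefore does not cover the muscle-rich libraries of these data. No pair of libraries held identical values. Alternatives changed the pseudocount, the filter, the scaling, weights, a block, a muscle covariate and the libraries used; voom on the recovered reads and the fit without the 4 libraries with muscle reads were added after seeing the data.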

Additional observations from a re-analysis of the deposited data

Results flagged for a closer look

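In each genotype the highest and the lowest library of every member were compared with the nearest other library, as a share of the whole range of the 5 (Dixon's ratio, limit 0.71). Of the 20 groups, 9 had a highest library past the limit. For normally distributed values chance passes it in about 1 in 20 groups; FPKM values of low genes are skewed, and the rate for them was not tested. Ucp1 was at 9.76 FPKM in Flox 5, against 0.0685 FPKM in the next Flox library, and Dio2 was at 0.632 FPKM in the same library, against 0.183 FPKM in the next. Cox8b at 178 FPKM, Cox7a1 at 73.8 FPKM, Ppargc1a at 2.06 FPKM and Elovl3 at 1.88 FPKM all stood out in Ad-GHRKO 1, next to 17.95, 11.5, 0.664 and 0.105 FPKM in the nearest libraries of that genotype. Ppargc1a at 2.30 FPKM and Ppara at 2.01 FPKM stood out in Flox 3, next to 1.12 and 1.46 FPKM. Elovl3 at 1.90 FPKM stood out in Flox 2, next to 0.319 FPKM. Ad-GHRKO 1, Flox 3 and Flox 5 are the 3 muscle-rich libraries, and Ad-GHRKO 1 and Flox 2 are the 2 with the most liver transcripts; the part of either in these values was not tested.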

How the results depend on the processing

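The count of members lower was 1 in the fit reported. It was 0 with no filter and with a replicate block, 2 with the muscle score as covariate, 3 with array weights (Cidea, Cox8b and Prdm16) and 0 to 2 when 1 library was left out. It was 1 in all other alternatives, but Cox8b in place of Cidea without the 3 muscle-rich libraries and without those and Ad-GHRKO 5, and 0 members were higher under any. Of all genes, 181 were lower and 99 higher in the fit reported. These counts became 81 and 36 with no filter, 306 and 241 with median ratio scaling, 341 and 224 with quantile normalization, 93 and 141 with TPM rescaling, 60 and 25 with the replicate block, 399 and 378 without the 3 muscle-rich libraries, 520 and 325 with the muscle covariate, 692 and 1003 under array weights, 313 and 362 when Ad-GHRKO 5 was left out beside the 3 muscle-rich libraries, and 75 to 407 and 41 to 778 when 1 library was left out (778 without Ad-GHRKO 1). With limma voom on the recovered reads they were 169 and 100. TPM rescaling moved the median log2 change of all genes to 0.15, against 0.04 as deposited, and the share of higher calls to 60.3%, against 35.4%; Cidea passed there, while Elovl6, Slc36a2 and Cpt2 did not. With the replicate block the limma adjusted p was 0.101 for Cidea, 0.0781 for Elovl6, 0.0565 for Slc36a2 and 0.0726 for Cpt2. After the genotype mean of each gene was subtracted, same-numbered libraries had correlations of -0.489 to 0.394. By this measure 1 of 5 Flox libraries correlated best with the Ad-GHRKO library of its own number. These correlations showed no pairing by number but cannot exclude it, because muscle content also differed among the libraries. Cox8b passed as lower also with the muscle covariate and array weights. With 1 library left out, the log2 change turned in direction for genes that were not called: it ranged over -0.088 to 0.88 for Cox7a1, -0.41 to 0.14 for Elovl3, -0.049 to 0.37 for Cidec and -0.053 to 0.22 for Elovl1. Over the members and named genes, 791 of 877 values kept direction and side of the threshold, a total that includes genes not called. For called genes it was 14 of 24 for Cidea, 8 of 23 for Elovl6, 12 of 24 for Slc36a2 and 16 of 24 for Cpt2. It was all 24 for Adrb3 and for Nrg4 and all 23 for Kng2. The causes of these shifts were not tested. Depth limits Ucp1, Dio2 and Elovl3, which had 3 reads or fewer in several libraries.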
